A study of Mus musculus with 2 samples.

Results

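Adventitial fibroblasts are the connective-tissue cells that lie in the outer sheath of the lung's larger vessels and airways. Here they were taken as the cells of 2 single-cell libraries of mouse lung that held collagen and decorin transcripts together with Pi16 or Col14a1. Of 28280 kept cells, 148 met that definition, 65 of 13720 in the library labelled 1V209-Cho-Lip and 83 of 14560 in the library labelled PBS. A cell had to hold at least 5 unique molecular identifiers (UMIs, each 1 captured transcript) of Col1a1, Col1a2, Col3a1 and Dcn together and at least 1 of Pi16 and Col14a1 together. It had to hold none of Npnt, Ptprc, Cdh5, Upk3b and Myh11, fewer than 20 of Def8, and less than 3% of its UMIs in S100a8 and S100a9. The cells were thus chosen by their UMI counts of these 14 genes, which are given as description only.

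The lungs came from female Balb/C mice that carried orthotopic K7M2 tumours, a mouse osteosarcoma line placed in its tissue of origin, and that received 1V209-Cho-Lip or, as controls, PBS. 1V209 is a synthetic agonist of TLR7, a sensor of single-stranded RNA. Both groups carried the tumour, so no lung without tumour entered the comparison. Each group was 1 library made from the pooled lungs of 3 mice; its dose, route and time were not given in the sources used here.

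Adventitial fibroblasts express the secreted protein Pi16 and supply the loose collagen, elastin and proteoglycan matrix around bronchovascular bundles. They are known as a source of chemokines, of the alarmin interleukin-33 and of complement, and as neighbours of the lymphatics and leukocytes that gather in these cuffs. Alveolar fibroblasts, marked by Npnt, lie in the gas-exchange walls and were used as the most similar cells for comparison.

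With 1 library per group there is no measure of variation among mice, and no test was made. UMIs were summed over the cells of a library and scaled to the same total in each group of cells (CPM, the unit used for levels throughout). Ratios are 1V209-Cho-Lip over PBS, followed by a 95% interval that covers counting error only. It treats each UMI as an independent draw and says nothing of differences among cells, mice or preparations. The treatment, the pool of mice and the library cannot be told apart.

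The 65 treated cells held 317072 UMIs and the 83 PBS cells 292486, with medians of 3250 and 2815 UMIs and 1566 and 1357 genes per cell. The deepest 5 cells held 28.5% of the treated and 15.4% of the PBS UMIs. The median mitochondrial share was 1.03% in both libraries, and the ribosomal gene Rn18s-rs5 took 6.20% against 7.90% of UMIs. The whole libraries held 54843992 and 58156102 UMIs in 13740 and 14622 barcodes, of which 268 occurred in both libraries, none of them among the adventitial cells.

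The label was then set against genes that the definition did not use. Lumican (Lum), a collagen-binding proteoglycan, had 147 UMIs in treated and 161 in PBS adventitial cells and 0 in alveolar fibroblasts of either library. The stem-cell antigen Ly6a had 745 and 731 UMIs against 26 and 38, and the surface glycoprotein Cd248 had 50 and 52 against 3 and 1. Scara5, a scavenger receptor that binds ferritin, had 88 and 126 UMIs against 2 and 0. All 4 genes were far higher in the adventitial cells of both libraries. Leaving out the genes of the definition, the 12 with the highest ratio over alveolar fibroblasts in both libraries were Creb5, Lum, Scara5, Ly6c2, Meg3, Tgfbi, Olfml2b, Ebf1, Cd248, Ly6c1, Cd9 and Opcml. In the other direction, Macf1, the antioxidant enzyme Gpx3, the microfibril protein Mfap4 and Limch1 were lower in adventitial than in alveolar fibroblasts, with Macf1 at 470 and 359 CPM and ratios of 0.126 and 0.0622 to the alveolar level.

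**Figure D1:**
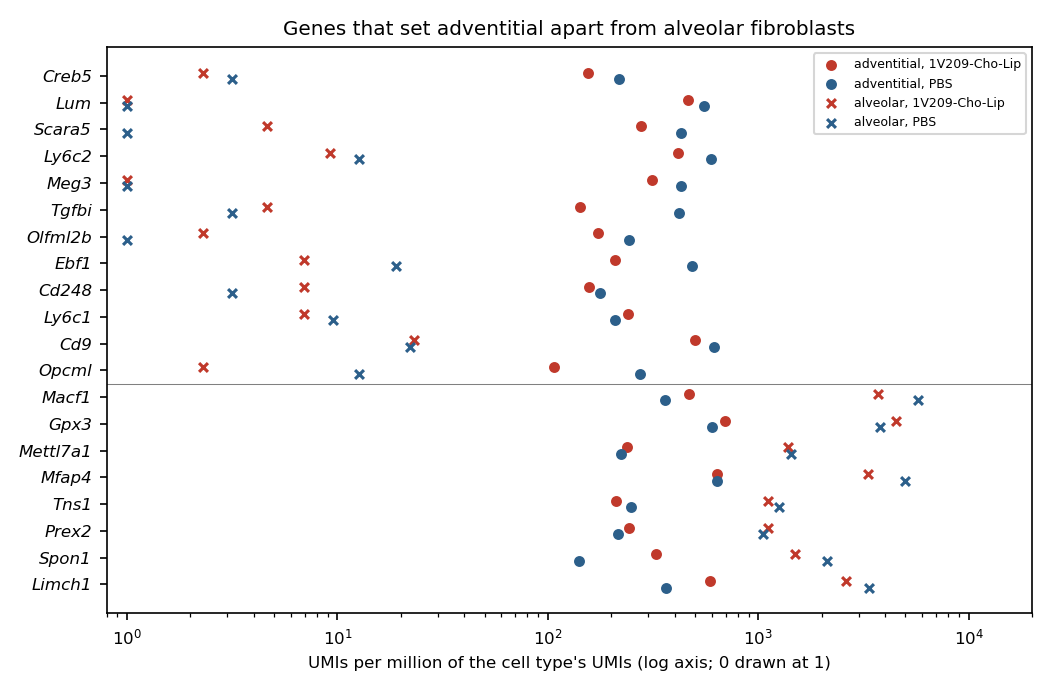
Levels in CPM, scaled to the cell type's own UMIs (log axis), in adventitial (circles) and alveolar (crosses) fibroblasts of the 1V209-Cho-Lip (red) and PBS (blue) libraries, for genes that the definition did not use. Genes above the line, such as Lum and Cd248, were higher in adventitial cells of both libraries; those below it, such as Macf1 and Gpx3, were lower.

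Some markers fitted the label less well. Dpp4, a surface peptidase common on adventitial progenitors, had only 5 and 9 UMIs. Inmt, a methyltransferase that is usually taken as an alveolar fibroblast marker, was found in 55 of 65 treated and 62 of 83 PBS cells, with 982 and 824 UMIs. Of the 13 alveolar markers 7 were measured, and Ces1d had 10 and 9 UMIs. Pi16 itself was present in 42 of 65 treated (64.6%, exact binomial interval 51.8 to 76.1%) and 49 of 83 PBS cells (59.0%, 47.7 to 69.7%). The remaining 23 and 34 cells entered through Col14a1 alone, and they were shallower, with median depths of 2574 and 1569.5 UMIs against 4579.5 and 3960 in Pi16-positive cells.

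The thresholds passed close to other cells. Of the adventitial cells, 19 treated and 20 PBS cells held exactly 1 UMI of Pi16 and Col14a1 together. Another 33 treated and 23 PBS cells failed only because they held Npnt, 22 and 24 only because they held neither Pi16 nor Col14a1, and 22 and 17 only because they held the leukocyte gene Ptprc. A further 59 and 45 cells failed only the matrix condition, and 42 and 32 of these held no matrix UMI at all.

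A smaller share of the treated library was adventitial fibroblasts, but not by more than counting error allows. The share of kept cells was 0.474% (exact binomial interval 0.366 to 0.603%) in the treated and 0.570% (0.454 to 0.706%) in the PBS library, a ratio of 0.831 (0.591 to 1.16). Among cells with little S100a8 and S100a9 the shares were 0.740% and 0.640%, a ratio of 1.16 (0.822 to 1.62). Among cells that passed the matrix condition and the exclusions other than Npnt, 203 and 204 in number, they were 32.0% and 40.7%, a ratio of 0.787 (0.560 to 1.10). The direction depended on the denominator, and the 3 intervals all held a ratio of 1.

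Expression in the adventitial cells differed over the full range of genes. Of 3129 genes with at least 30 UMIs over both libraries, 208 (6.65%) were at least 2-fold higher and 200 (6.39%) at least 2-fold lower in treated cells, and the median log2 ratio was -0.06. Intervals excluded 1 for 193 of the higher and 191 of the lower genes, but they leave out variation among cells and are too narrow where UMIs cluster in few cells. Scaling by TMM, which moved the median log2 ratio to 0.08, gave 255 higher and 129 lower genes, so that 66.4% of the calls were higher against 51.0%. When the cell with the most UMIs of each gene was left out of each library, 163 (6.14%) and 176 (6.63%) of 2655 genes were past 2-fold, and 148 and 136 of these were among the 208 and 200.

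The highest ratios were those of Saa3, Cxcl13, Lcn2, Cxcl14 and Cebpd, and the lowest those of Gpc6, Hhip, Mustn1, Tgfbi and Abcc9. The 30 named genes, with ratios at either end of 752 genes of 100 or more UMIs, are ordered here by what they do. Counts of list members past 2-fold stand beside 6.65% higher and 6.39% lower among all 3129 genes.

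**Figure D2:**
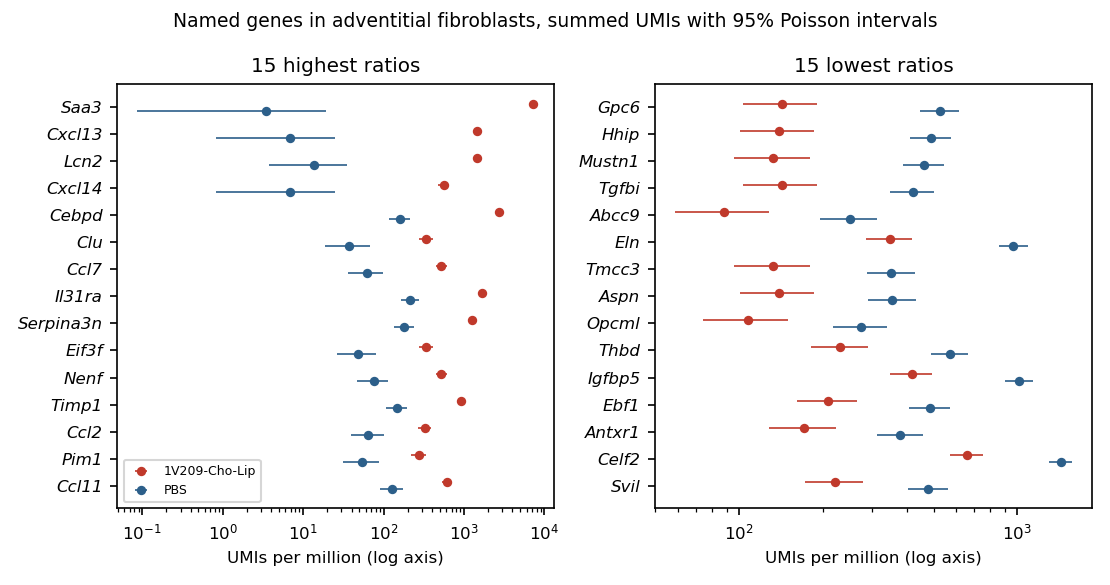
Summed level of each named gene in adventitial fibroblasts, in CPM (log axis), with 95% Poisson intervals for counting error, in the 1V209-Cho-Lip (red) and PBS (blue) libraries. The gap is widest for Saa3, at 7222 against 3.42, and the lowest ratio is that of Gpc6, at 142 against 527.

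Cebpd was the gene whose difference ran through most adventitial cells. It encodes C/EBP delta, a transcription factor that is induced early in the acute-phase response (ENSMUSG00000071637, chr16:15887286-15891031, GRCm38). It had 858 UMIs in treated and 47 in PBS cells, 2706 against 161 CPM, a ratio of 16.8 (12.6 to 23.1). It was found in 61 of 65 treated and 26 of 83 PBS cells, its median was 9 against 0 UMIs per cell, and the highest PBS cell held 5. After each cell was thinned to 1000 UMIs, 78.7% of treated and 9.09% of PBS adventitial cells held a Cebpd UMI. The same share was 4.56% and 0.172% in lymphocyte-gate cells (at least 1 UMI of Cd3e and Cd79a together, no Cdh5 and no matrix UMI) and 45.4% and 6.91% in endothelial-gate cells (at least 2 UMIs of Cdh5, no Ptprc and no matrix UMI). The ratio was 14.9 (11.9 to 18.9) in alveolar fibroblasts and 22.4 in all other kept cells, and the ratio of the adventitial to the alveolar ratio was 1.13 (0.782 to 1.64).

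Several other genes were higher across many adventitial cells. Il31ra, a receptor chain for interleukin-31, had 525 against 63 UMIs and was found in 49 of 65 against 34 of 83 cells, a ratio of 7.69 (5.91 to 10.1). Nenf, which encodes the secreted protein neudesin, had 166 against 22 UMIs in 49 and 17 cells, a ratio of 6.96 (4.45 to 11.4). Eif3f, a subunit of a translation initiation factor, had 107 against 14 UMIs in 42 and 11 cells, a ratio of 7.05 (4.02 to 13.3). Nenf and Eif3f were spread over cells, with at most 8 and 11 UMIs in any treated cell. Il31ra was less even, and its leading treated cells held 83, 72, 59 and 49 of the 525 UMIs. The ratios of Il31ra, Nenf and Eif3f were also high in alveolar fibroblasts (8.87, 11.3 and 9.47) and in all other kept cells (9.59, 6.47 and 5.72). Pim1, a kinase gene downstream of STAT signalling, had 87 against 16 UMIs in 30 and 11 cells, a ratio of 5.02 (2.92 to 9.16). For log2 ratios, all kept cells were thinned to 1000 UMIs and the adventitial cells chosen anew, so the cells changed as well as the depth. After this thinning the log2 ratio of Il31ra was 1.87 against 2.93, and that of Eif3f 3.86 against 2.77.

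Saa3, Lcn2 and Cxcl13 had the largest ratios, but their transcripts came from few cells. Saa3 encodes serum amyloid A3, an acute-phase lipoprotein made outside the liver (ENSMUSG00000040026, chr7:46711998-46715700, GRCm38). It had 2290 UMIs in treated and 1 in PBS cells, a ratio of 2112 (379 to 83473). Only 10 of 65 treated cells held it, the leading cells with 1183, 461, 360, 151 and 47 UMIs, and these 5 cells held 96.2% of the total. Lcn2, which encodes lipocalin-2, a protein that withholds iron from bacteria by binding their siderophores, had 460 against 4 UMIs, a ratio of 106 (41.2 to 391), in 10 treated and 4 PBS cells. Cxcl13, the chemokine that draws B cells into follicles, had 454 against 2 UMIs, a ratio of 209.4 (57.6 to 1734), in 6 treated cells and 1 PBS cell. In the treated library a minority of adventitial cells thus held nearly all transcripts of these 3 genes. Without the 5 deepest cells of each library the log2 ratios were 6.21 against 10.46 for Saa3, 3.69 against 7.39 for Cxcl13 and 3.99 against 6.56 for Lcn2.

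The cells with Saa3 overlapped with those of the other genes. Of the 10 Saa3-positive cells, 7 also held Lcn2, 5 held Cxcl13 and 7 held Pi16. They were deep cells, with a median of 11182.5 UMIs against 3105 in the treated cells without Saa3, and 6 of them were among the 10 deepest. The leading cell had 16002 UMIs in all, of which 1183 were Saa3, 125 Lcn2 and 180 Cxcl13. The cell that ranked next had 20952 UMIs, with 461 of Saa3, 138 of Lcn2 and 67 of Cxcl13. The cell with 151 Saa3 UMIs also held 86 UMIs of S100a8 and 129 of S100a9, genes of neutrophils, which was most of the 127 and 205 UMIs of these genes in the treated adventitial cells; the other Saa3-positive cells held at most 4 of either. After thinning to 1000 UMIs, 14.8% of treated adventitial cells held Saa3, against 1.41% of endothelial-gate and 2.87% of lymphocyte-gate cells, and 0 of 77 PBS adventitial cells did. That count allows up to 3.9% of PBS cells with a Saa3 UMI at this depth and does not limit the share that express the gene; before thinning 1 PBS cell held 1.

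**Figure D3:**
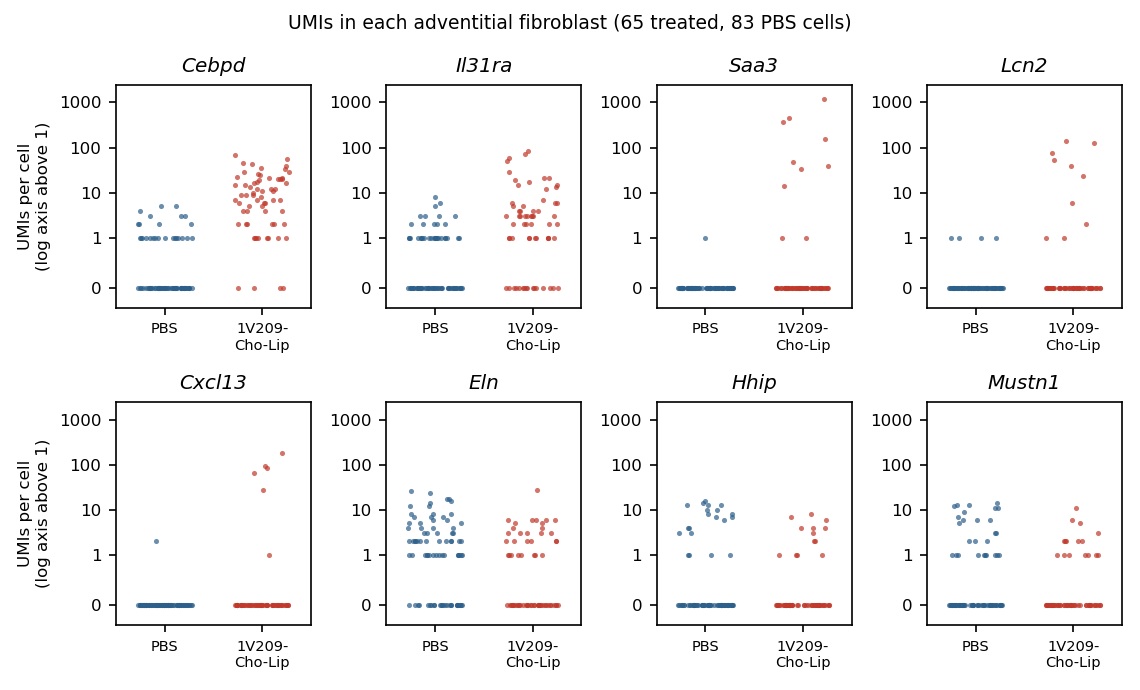
UMIs of 8 genes in each of the 65 treated (red) and 83 PBS (blue) adventitial fibroblasts; the axis is logarithmic above 1 and each point is a cell, spread sideways for display. Cebpd was higher over most treated cells, and Il31ra was found in 49 of 65 but with 83, 72, 59 and 49 UMIs in its leading cells. Saa3, Lcn2 and Cxcl13 were carried by 10, 10 and 6 treated cells and Hhip and Mustn1 by subsets of cells in both libraries.

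The stretches before the starts of these 3 genes are shown because Cebpd was higher in the same library and C/EBP factors bind a known motif. Each run holds bases 250 to 61 before the RefSeq start (GRCm38.p6), written along the gene's strand, and capitals mark matches to the C/EBP letters TTGCNNAA on either strand. Saa3 lies on the minus strand of chromosome 7 (46715737-46715926), Cxcl13 on the plus strand of chromosome 5 (95956689-95956878) and Lcn2 on the minus strand of chromosome 2 (32387800-32387989). Bases just after the RefSeq start were found in a GENCODE transcript of Lcn2, but not in one of Saa3 or Cxcl13. The Lcn2 run lies within the gene as GENCODE places it (32384633-32388252).
Saa3: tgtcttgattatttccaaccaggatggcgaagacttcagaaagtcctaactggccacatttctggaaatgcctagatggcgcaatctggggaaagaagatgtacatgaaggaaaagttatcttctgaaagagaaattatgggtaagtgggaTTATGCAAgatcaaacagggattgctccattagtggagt
Cxcl13: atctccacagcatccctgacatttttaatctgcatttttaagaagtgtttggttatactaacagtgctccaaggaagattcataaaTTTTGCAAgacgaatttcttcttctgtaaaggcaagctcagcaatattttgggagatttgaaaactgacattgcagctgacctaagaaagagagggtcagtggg
Lcn2: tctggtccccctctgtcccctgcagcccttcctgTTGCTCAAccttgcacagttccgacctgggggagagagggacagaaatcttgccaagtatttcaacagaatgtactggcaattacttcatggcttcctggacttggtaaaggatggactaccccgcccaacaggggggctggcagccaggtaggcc
The match lay at bases -99 to -92 of Saa3 (TTATGCAA, the reverse strand's form), -164 to -157 of Cxcl13 (TTTTGCAA, reverse) and -216 to -209 of Lcn2 (TTGCTCAA). Of the 32851 RefSeq promoters in the table, 9.56% hold such a match in the same 250 bases. Of the 15 genes with the highest ratios, 9 had a promoter in the table. The C/EBP letters matched only these 3 of the 9, and not Cxcl14, Il31ra, Serpina3n, Eif3f, Timp1 or Pim1. Other patterns were searched on both strands: TTCNNNGAA of STAT factors matched Cxcl14 and Il31ra (7.02% of all promoters), TGANTCA of AP-1 matched Eif3f (6.75%), and GGGA of NF-kB followed by any 2 bases and TTCC matched none of the 9 (1.21%). A match is only a run of letters and not a measured binding site, and a link of these genes to Cebpd was not tested.

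Of the 6 acute-phase and antimicrobial genes measured, 4 were at least 2-fold higher and none lower, against 6.65% and 6.39% of all genes, and their median log2 ratio was 2.01 against -0.06 over all genes. Beside Saa3 and Lcn2 these were Lbp, which binds bacterial lipopolysaccharide, with 132 against 29 UMIs and a ratio of 4.20 (2.79 to 6.51), and Steap4, a metalloreductase, with 99 against 23 UMIs and a ratio of 3.97 (2.50 to 6.55). All 4 stayed past 2-fold without each gene's leading cell. Cp, the copper-carrying ferroxidase, had 112 against 73 UMIs and Fgl2 26 against 28, both short of 2-fold. Serpina3n, a protease inhibitor of the acute phase that stands outside this list, had 398 against 53 UMIs in 27 and 22 cells, a ratio of 6.93 (5.19 to 9.41); 1 treated cell held 146 of the 398. Its log2 ratio of 2.78 was 1.79 after thinning, 1.41 without the 5 deepest cells and 1.71 when CPM was averaged over cells.

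Of 11 chemokine genes measured, 9 were at least 2-fold higher and none lower, against 6.65% and 6.39% of all genes, with a median log2 ratio of 2.29 that was 1.47 after thinning and 3.40 without called doublets. Without each gene's leading cell, 5 were at least 2-fold higher. Cxcl1, which attracts neutrophils, had 552 against 172 UMIs in 32 and 25 cells, a ratio of 2.96 (2.49 to 3.53). Ccl11, which attracts eosinophils, had 193 against 37 UMIs in 30 and 24 cells, a ratio of 4.81 (3.37 to 7.04). Cxcl12, which retains leukocytes and progenitors through Cxcr4, had 367 against 165 UMIs in 45 and 50 cells, a ratio of 2.05 (1.70 to 2.48), and 1.74 without its leading cells. These 3 were found in many cells of both libraries.

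Other chemokines rested on very few cells. The monocyte attractants Ccl2 and Ccl7 had 103 against 19 and 165 against 18 UMIs, with ratios of 5.0 (3.05 to 8.64) and 8.46 (5.19 to 14.6). Ccl2 was found in 4 treated and 3 PBS cells, and Ccl7 in 10 and 3. In PBS cells 16 of the 19 UMIs of Ccl2 were in 1 cell. Thinning took their log2 ratios from 2.29 to 1.17 and from 3.04 to 1.31. The log2 ratios of Ccl2 and Ccl7 were 3.25 and 3.63 without the leading cells, and 4.62 and 3.40 without called doublets. Of the 178 treated UMIs of Cxcl14, 154 came from 1 cell, and PBS cells had 2. Of the 74 treated UMIs of Cxcl5, 73 came from 1 cell, and PBS cells had 0, so that the treated level was at least 22.8-fold higher when 3 counts are taken for the PBS cells. Cxcl5 therefore describes 1 cell in the treated library. Cxcl14 was found in 10 treated and 2 PBS cells. Its log2 ratio of 6.04 was 3.98 without the leading cells, 3.42 without the 5 deepest cells and 2.55 after thinning. Cxcl16 and the decoy receptor Ackr3, with 20 against 15 and 39 against 38 UMIs, were the measured members short of 2-fold, while Cxcl9 had no UMI in either library and Cxcl10 had 2 against 9.

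Among cytokines and their receptors, 3 of 12 measured genes were at least 2-fold higher and none lower, against 6.65% and 6.39% of all genes. The median log2 ratio was 0.15. Il33, the alarmin that activates type 2 lymphocytes, had 120 UMIs in 17 of 65 treated cells against 44 in 26 of 83 PBS cells. The ratio was 2.52 (1.77 to 3.64). The 5 leading treated cells held 75% of the 120 UMIs, and all 5 were Saa3-positive. Il6 had 100 against 40 UMIs in 19 and 12 cells, a ratio of 2.31 (1.58 to 3.42). The receptor gene Tnfrsf1a had 58 against 25 UMIs, a ratio of 2.14 (1.32 to 3.57), whereas the receptor chains Il6st and Osmr had 106 against 109 and 50 against 41.

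Of 17 measured NF-kB target genes, 8 were at least 2-fold higher and none lower, against 6.65% and 6.39% of all genes. The median log2 ratio was 0.91, and the counts were the same without each gene's leading cell. The 8 include Cxcl1 and Ccl2, which the chemokine list also holds. Sod2, the mitochondrial superoxide dismutase, had 112 against 23 UMIs in 26 and 18 cells, a ratio of 4.49 (2.85 to 7.38). Tnfaip2 had 60 against 8 UMIs, a ratio of 6.92 (3.30 to 16.8). Tnfaip6, which encodes a hyaluronan-binding protein of inflamed matrix, had 477 against 159 UMIs, a ratio of 2.77 (2.31 to 3.33). The members were not uniform: Nfkbia, the inhibitor that NF-kB induces, had 277 against 187 UMIs and a ratio of 1.37, and the adhesion molecule Icam1 had 111 against 104 and a ratio of 0.985.

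In the STAT3 and SOCS list, 4 of 12 measured genes were at least 2-fold higher and none lower, against 6.65% and 6.39% of all genes. The median log2 ratio was 0.34. Cebpd and Pim1 are named above. Socs1, a feedback inhibitor of cytokine receptors, had 35 against 4 UMIs in 10 and 3 cells, a ratio of 8.07 (2.89 to 31.3). Socs3 had 177 against 138 UMIs and a ratio of 1.18 (0.942 to 1.49), and Stat3 95 against 68 and a ratio of 1.29. Both metallothionein genes measured were at least 2-fold higher: Mt1 had 2294 against 1054 UMIs, a ratio of 2.01 (1.87 to 2.16), and Mt2 358 against 92, a ratio of 3.59 (2.85 to 4.56). Metallothioneins bind zinc and are induced by metals, glucocorticoids and cytokines. Of 15 glucocorticoid-responsive genes 3 were at least 2-fold higher, and the widely used reporter Tsc22d3 had 95 against 75 UMIs, a ratio of 1.17 (0.854 to 1.60).

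Immediate-early genes, which also respond to tissue dissociation, were higher in part. Of 29 measured, 6 were at least 2-fold higher and none lower, against 6.65% and 6.39% of all genes, with a median log2 ratio of 0.34. Dusp1, a phosphatase that ends MAP kinase signalling, had 647 against 185 UMIs in 56 and 53 cells, a ratio of 3.23 (2.74 to 3.82). Ier3 had 322 against 106 UMIs, a ratio of 2.80 (2.24 to 3.52). In contrast Fos had 1610 against 1525 UMIs and a ratio of 0.974 (0.907 to 1.05), and Zfp36 had 904 against 772 and a ratio of 1.08. Dnajb1, a heat-shock cochaperone, had 103 against 159 UMIs and the lowest ratio of the list, 0.598 (0.462 to 0.770). In alveolar fibroblasts 12 of 29 were at least 2-fold higher, where 8.38% of all genes were; the difference between the counts of the 2 cell types was not tested. Atf3 had a ratio of 1.03 (0.909 to 1.16) in adventitial and 3.42 (2.83 to 4.14) in alveolar cells, a ratio of ratios of 0.301 (0.241 to 0.376).

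Type I interferon-stimulated genes, a usual readout of TLR7 agonists, did not stand apart from all genes. Of the 40 listed genes 12 were measured; 1 was at least 2-fold higher and 1 lower, and the median log2 ratio was -0.06, as over all genes. Isg15, a ubiquitin-like modifier, had 59 against 61 UMIs, a ratio of 0.892 (0.613 to 1.30), and Ifi27l2a 232 against 224, a ratio of 0.955 (0.792 to 1.15). Ifitm3, which blocks viral entry, had 1129 against 705 UMIs, a ratio of 1.48 (1.34 to 1.63), and its relative Ifitm1 had 117 against 26, a ratio of 4.15 (2.70 to 6.62). Rnf213 was the member past 2-fold in the other direction, with 14 against 31 UMIs. The other 28 listed genes had fewer than 30 UMIs over both libraries, Ifit3 among them with 4 against 22 and Rsad2 with 2 against 4, so that differences in them were not detectable at this depth in most cases. The interferon-gamma and GTPase list had 1 of 7 genes at least 2-fold lower, Gbp7, with 12 against 23 UMIs.

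None of 10 measured MHC class I genes was past 2-fold in adventitial cells, and in alveolar fibroblasts none of 11 was higher and 1 was lower. The adventitial median log2 ratio of 0.27 was -0.04 after thinning, -0.04 without the 5 deepest cells and -0.09 in Pi16-positive cells. The ratios of B2m and H2-K1 lay on opposite sides of 1 in the 2 kinds of fibroblast. B2m, the light chain of class I molecules, had 422 against 261 UMIs in adventitial cells, a ratio of 1.49 (1.28 to 1.75), and 558 against 594 in alveolar fibroblasts, a ratio of 0.684 (0.608 to 0.769). The ratio of these ratios was 2.18 (1.80 to 2.64). H2-K1 had 388 against 193 UMIs and a ratio of 1.85 (1.56 to 2.22) in adventitial cells and 0.757 (0.649 to 0.883) in alveolar cells, a ratio of ratios of 2.45 (1.95 to 3.08). The leading treated cells held 61 of the B2m and 59 of the H2-K1 UMIs, and without the leading cells the ratios were 1.40 and 1.71.

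Complement genes, which adventitial fibroblasts express strongly, had 2 of 11 measured members at least 2-fold higher and 1 lower, with a median log2 ratio of -0.02. The median was 0.52 in Pi16-positive cells and 0.45 in cells with at least 2 UMIs of Pi16 and Col14a1 together. C3, the central component, had 1301 against 665 UMIs in 55 and 57 cells, a ratio of 1.80 (1.64 to 1.98). Cfb, of the alternative pathway, had 126 against 39 UMIs in 21 and 22 cells, a ratio of 2.98 (2.07 to 4.39), and 24 against 24 in alveolar fibroblasts, which gave a ratio of ratios of 4.09 (2.09 to 8.0). The inhibitor gene Serping1 had 1203 against 1123 UMIs, a ratio of 0.988 (0.910 to 1.07). Clu, a secreted chaperone that also inhibits the terminal pathway, had 107 against 11 UMIs and a ratio of 8.97 (4.82 to 18.5), but 71 of the 107 came from 1 treated cell, and it was found in 8 treated and 11 PBS cells. Its log2 ratio of 3.11 was 1.72 without the leading cells and 0.78 without the 5 deepest cells, which is short of 2-fold. After thinning, with the cells chosen anew, it was -0.23, which turns its direction.

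**Figure D4:**
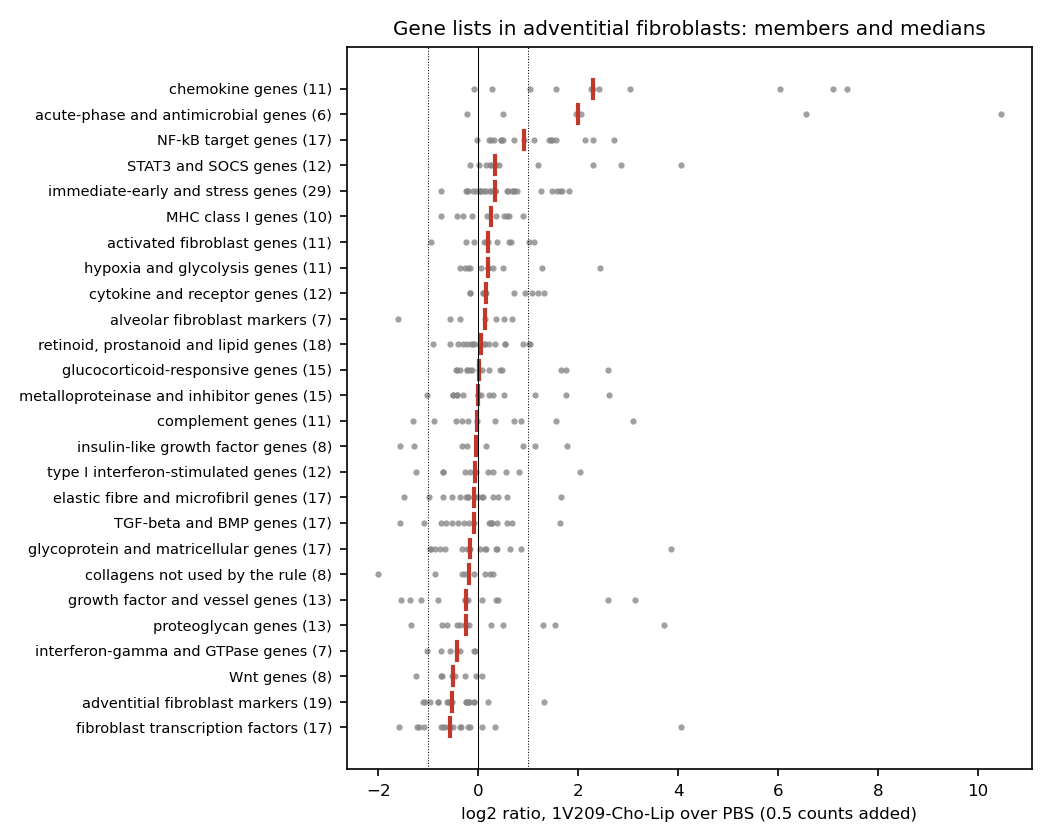
log2 ratio of each measured member (grey points) and the median (red bars) of the gene lists with at least 6 measured members in adventitial fibroblasts; the number measured is in brackets and dotted lines mark 2-fold. Chemokine and acute-phase genes have the highest medians, 2.29 and 2.01, and fibroblast transcription factors and adventitial markers the lowest, -0.55 and -0.53.

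Matrix genes had members past 2-fold in both directions. Eln, which encodes elastin (ENSMUSG00000029675, chr5:134702593-134747323, GRCm38), had 110 UMIs in treated and 283 in PBS cells, 347 against 968 CPM, a ratio of 0.359 (0.285 to 0.448), and was found in 29 of 65 against 57 of 83 cells. Thinned to 1000 UMIs, 21.3% of treated and 44.2% of PBS cells held it, against 0.676% and 0.861% of lymphocyte-gate cells. The ratio was 0.299 (0.247 to 0.360) in alveolar fibroblasts, and the ratio of the adventitial to the alveolar ratio was 1.20 (0.901 to 1.60). The 17 elastic fibre and microfibril genes measured included 2 at least 2-fold lower and 1 higher, with a median log2 ratio of -0.07. Fbn1, the microfibril backbone, had 111 against 121 UMIs and a ratio of 0.846 (0.648 to 1.10). Lox, the enzyme that crosslinks elastin and collagen, went the other way with 49 against 14 UMIs, a ratio of 3.23 (1.75 to 6.33).

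Of 8 measured collagen genes that the definition did not use, 1 was at least 2-fold lower and none higher, with a median log2 ratio of -0.17. That gene was Col15a1, of the basement membrane zone, with 8 against 31 UMIs and a ratio of 0.238 (0.0945 to 0.529). Col6a3 had 89 against 67 UMIs and a ratio of 1.23 (0.882 to 1.71), but 57 of the 89 were in 1 treated cell and the ratio was 0.50 without the leading cells. Col6a1 and Col5a2 had 46 of 126 and 49 of 114 treated UMIs in 1 cell, with ratios of 0.830 and 1.11 that became 0.580 and 0.725 without the leading cells. The list's median was sensitive to these cells: it was -0.86 without the 5 deepest cells of each library.

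Among 13 proteoglycan and hyaluronan genes, 3 were at least 2-fold higher and 1 lower, with a median log2 ratio of -0.25. Has1, a hyaluronan synthase, had 439 against 165 UMIs in 35 and 28 cells, a ratio of 2.45 (2.05 to 2.95), and Sdc4, a cell-surface proteoglycan, had 219 against 69, a ratio of 2.93 (2.22 to 3.9). Prg4, a lubricating proteoglycan, had 35 against 2 UMIs, a ratio of 16.1 (4.15 to 139), in 8 treated cells and 1 PBS cell. In the glycoprotein list 1 of 17 was at least 2-fold higher and none lower: Ccn5 had 39 against 2 UMIs in 14 and 2 cells, a ratio of 18 (4.66 to 154). Mgp, an inhibitor of calcification, had 2428 against 1230 UMIs and a ratio of 1.82 (1.70 to 1.95), with 572 in 1 treated cell. Fn1 had 264 against 186 UMIs, a ratio of 1.31 (1.08 to 1.59), and Tnxb 142 against 255, a ratio of 0.514 (0.415 to 0.633).

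Timp1, an inhibitor of metalloproteinases, had 290 against 43 UMIs in 26 and 23 cells, a ratio of 6.22 (4.50 to 8.78). Its log2 ratio of 2.62 was 1.47 without the 5 deepest cells, 1.95 when CPM was averaged over cells and 2.14 in Pi16-positive cells. In alveolar fibroblasts its ratio was 11 (7.11 to 17.7). Its relatives Timp2 and Timp3 had 148 against 194 and 928 against 1146 UMIs, ratios of 0.704 and 0.747. The metalloproteinase genes Mmp2 and Mmp3 had 139 against 181 and 141 against 175 UMIs. Of the 15 measured genes of this list 3 were at least 2-fold higher and 1 lower, Adamts5, with 40 against 75 UMIs.

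Binding proteins of insulin-like growth factors were divided. Igfbp4 had 1086 against 292 UMIs in 54 and 59 cells, a ratio of 3.43 (3.01 to 3.92), with 263 in 1 treated cell and a ratio of 2.97 without the leading cells; its ratio in alveolar fibroblasts was 4.18 (2.55 to 7.20). Igfbp5 had 132 against 296 UMIs, a ratio of 0.411 (0.332 to 0.507), but 152 of the 296 came from 1 PBS cell and the ratio without the leading cells was 0.766. Igfbp6, the most adventitial member, had 469 against 504 UMIs and a ratio of 0.858 (0.755 to 0.975). Of 13 growth factor and vessel genes 2 were at least 2-fold higher and 3 lower. Angptl4 had 55 against 8 UMIs, a ratio of 6.34 (3.0 to 15.4). The vessel-stabilising ligand Angpt1 had 23 against 55 UMIs in 14 and 34 cells, a ratio of 0.386 (0.226 to 0.638), and the receptor gene Pdgfrb had 13 against 36, a ratio of 0.333 (0.162 to 0.643).

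In the TGF-beta and BMP list 1 of 17 measured genes was at least 2-fold higher and 2 lower, with a median log2 ratio of -0.08. Tgfbi, an adhesion protein of the matrix induced by TGF-beta, had 45 against 123 UMIs in 24 of 65 and 45 of 83 cells, a ratio of 0.337 (0.234 to 0.478). Its log2 ratio of -1.56 was -0.76 after thinning and -0.83 when CPM was averaged over cells, both short of 2-fold. The inhibitory Smad7 had 25 against 7 UMIs, a ratio of 3.29 (1.39 to 9.02), and Id3 376 against 366, a ratio of 0.948. Of 8 Wnt genes 1 was at least 2-fold lower, the secreted inhibitor Sfrp4, with 24 against 53 UMIs.

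Among 17 measured fibroblast transcription factors, 4 were at least 2-fold lower and 1 higher, against 6.39% and 6.65% of all genes. The median log2 ratio was -0.55. The higher one was Cebpd. Ebf1, which marks adventitial and other perivascular cells, had 66 against 142 UMIs in 30 and 37 cells, a ratio of 0.429 (0.315 to 0.578); its log2 ratio was -0.69 after thinning and -0.75 without the 5 deepest cells, both short of 2-fold. Meox2 had 12 against 34 UMIs, a ratio of 0.326 (0.154 to 0.645), Foxp2 16 against 34, a ratio of 0.434 (0.224 to 0.808), and Tbx5 10 against 20, a ratio of 0.461 (0.193 to 1.03). Nfib, with the most UMIs of the lower-lying members, had 163 against 250 and a ratio of 0.601 (0.491 to 0.736). Thinned to 1000 UMIs per cell, the list's median was 0.18, so its sign depended on that setting.

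Most genes that mark adventitial fibroblasts were short of 2-fold. Of 19 measured markers that the definition did not use, 1 was at least 2-fold higher and 2 lower, against 6.65% and 6.39% of all genes, and the median log2 ratio was -0.53 against -0.06 over all genes. Gsn, the actin-severing protein gelsolin, had 5724 against 7723 UMIs in 64 and 81 cells, a ratio of 0.684 (0.661 to 0.708). Clec3b, which encodes tetranectin, had 1792 against 2510 UMIs, a ratio of 0.659 (0.620 to 0.700), and Cd34 had 104 against 168, a ratio of 0.571 (0.443 to 0.734). Serpinf1, an inhibitor of vessel growth, and the ectonucleotidase Entpd2 were past 2-fold, with 187 against 363 and 32 against 64 UMIs and ratios of 0.475 (0.396 to 0.568) and 0.461 (0.292 to 0.716). Ly6a stayed level at 745 against 731 UMIs, a ratio of 0.940 (0.848 to 1.04). Il33 was the member that was higher, with 75% of its treated UMIs in 5 cells. The same list had 0 higher and 1 lower of 10 measured genes in alveolar fibroblasts. Thinned to 1000 UMIs, the median was -0.17.

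The lowest ratio among the named genes was that of Gpc6, a cell-surface glypican, with 45 against 154 UMIs in 23 and 42 cells, a ratio of 0.270 (0.189 to 0.378). Thbd, the thrombin receptor thrombomodulin, had 73 against 167 UMIs in 30 and 53 cells, a ratio of 0.403 (0.302 to 0.534). Abcc9, a subunit of potassium channels, had 28 against 73 UMIs in 18 and 40 cells, a ratio of 0.354 (0.220 to 0.554). Thbd and Abcc9 were short of 2-fold after thinning, with log2 ratios of -0.66 and -0.41; so was Thbd without the 5 deepest cells, at -0.78, and Abcc9 when CPM was averaged over cells, at -0.73. Gpc6 was -1.15 after thinning. The others of the 15 were Tmcc3, Opcml, Antxr1, Celf2 and Svil, with ratios of 0.376, 0.392, 0.449, 0.461 and 0.461; of these Antxr1 and Celf2 were 0.519 and 0.568 without the leading cells. After thinning Antxr1 turned to a log2 ratio of 0.28, and Svil and Opcml were short of 2-fold at -0.13 and -0.50. In PBS cells 28 of 80 UMIs of Opcml and 99 of 418 of Celf2 were in 1 cell.

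Hhip and Mustn1 followed a subset of cells. Hhip encodes a decoy receptor of hedgehog ligands and marks fibroblasts beside airways. It had 44 against 143 UMIs, a ratio of 0.284 (0.198 to 0.400), in 13 of 65 treated (20%) and 20 of 83 PBS cells (24.1%). Of the PBS UMIs, 140 of 143 were in cells without Pi16, as were 36 of 44 of the treated ones. At least 3 Hhip UMIs were held by 7 treated and 16 PBS cells, of which 1 and 0 held Pi16. The definition thus also took in cells with Hhip that had entered through Col14a1 alone. Mustn1, a small nuclear protein of muscle and skeletal tissue, had 42 against 135 UMIs, a ratio of 0.287 (0.198 to 0.408), of which 28 and 118 lay in the Hhip-positive cells; outside them it had 14 against 17 UMIs, a ratio of 0.765 (0.349 to 1.65). Aspn, a small proteoglycan that binds TGF-beta, had 44 against 104 UMIs and a ratio of 0.390 (0.268 to 0.560), and 22 against 42 with a ratio of 0.486 (0.277 to 0.834) outside these cells. In Pi16-positive cells alone Hhip had 8 against 3 UMIs.

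Without the Hhip-positive cells, 186 genes were at least 2-fold higher and 197 lower, and of the 30 named genes 28 stayed past 2-fold in their direction. Eln then had a ratio of 0.420 (0.325 to 0.538), Gpc6 0.249 (0.171 to 0.356), Ebf1 0.405 (0.292 to 0.555) and Cebpd 17.5 (12.8 to 24.5). The 2 that did not were Hhip itself and Mustn1.

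Alveolar fibroblasts came from the same 2 libraries, so both comparisons share the PBS library and the values are set side by side without a count of shared genes. In alveolar fibroblasts, summed over 83 treated and 74 PBS cells, 333 of 3973 genes (8.38%) were at least 2-fold higher and 116 (2.92%) lower. The acute-phase, chemokine and NF-kB lists had median log2 ratios of 1.86, 2.08 and 0.85 there, near the adventitial 2.01, 2.29 and 0.91. Of their measured genes, 3 of 6, 5 of 7 and 6 of 19 were at least 2-fold higher in alveolar cells, and 0, 1 and 0 lower. Among the named genes, Serpina3n had a ratio of 6.93 in adventitial and 3.40 in alveolar cells, and Ccl7 8.46 and 4.37. Among the lower ones, Thbd had 0.403 and 0.553, Tmcc3 0.376 and 0.555, Svil 0.461 and 0.849, Celf2 0.461 and 1.01, and Antxr1 0.449 and 1.14. Gpc6 had 5 UMIs in treated and 0 in PBS alveolar cells and Tgfbi 2 and 1, too few to compare.

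**Figure D5:**
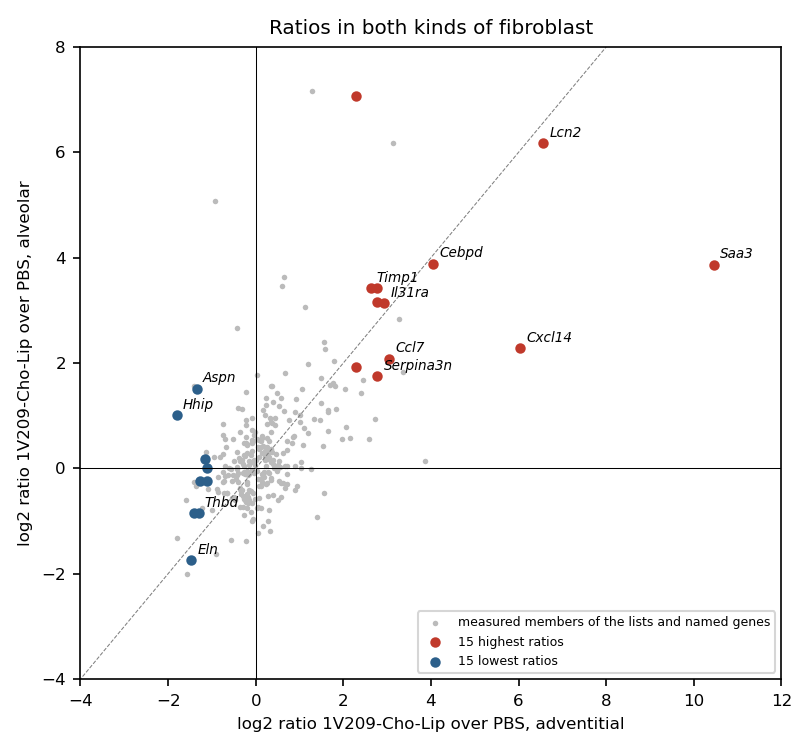
log2 ratio of 1V209-Cho-Lip over PBS in adventitial (horizontal) and alveolar (vertical) fibroblasts for list members and named genes measured in both, with the 15 highest (red) and 15 lowest (blue) named genes; the dashed line marks equal ratios. Lcn2, Cebpd and Il31ra lie near the dashed line and Eln below 0 on both axes, while Saa3 and Cxcl14 lie far to its right and Hhip and Aspn lie on opposite sides of 0.

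Single genes differed between the 2 kinds of fibroblast beyond counting error. Saa3 had 170 against 8 UMIs in alveolar fibroblasts, a ratio of 15.5 (7.68 to 36.4), and the ratio of the adventitial to the alveolar ratio was 137 (17.0 to 1098). That value rests on the 10 Saa3-positive treated cells and on 1 UMI in the PBS cells. Cxcl13 had no UMI in alveolar fibroblasts of either library. Lcn2 was alike in both, with 548 against 5 UMIs in alveolar cells, a ratio of 79.8 (34.0 to 247), and a ratio of ratios of 1.33 (0.355 to 4.98). Cxcl12 was level in alveolar cells, at 90 against 65 UMIs and a ratio of 1.01 (0.725 to 1.41), with a ratio of ratios of 2.04 (1.41 to 2.94). Sdc4, Steap4 and Angptl4 had ratios of ratios of 2.17 (1.55 to 3.03), 2.67 (1.51 to 4.72) and 4.27 (1.89 to 9.64). Timp1 leaned to the alveolar side, with a ratio of ratios of 0.568 (0.332 to 0.972). These intervals are approximate and cover counting error only.

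Transcripts of other cell types differed between the libraries within the adventitial cells. The 6 neutrophil markers summed to 1192 CPM in treated and 103 CPM in PBS cells. Most of this was S100a8 and S100a9, which the definition used, with 127 against 11 and 205 against 19 UMIs, and 86 of the 127 and 129 of the 205 were in 1 treated cell. Retnlg, Csf3r and Cxcr2 also had UMIs in treated cells and Stfa2 had none. Retnlg had 32 against 0 UMIs, at least 9.84-fold higher when 3 counts are taken for the PBS cells, and 22 of the 32 came from 1 cell. Red cell genes went the other way: Hbb-bs had 0 UMIs in treated and 32 in PBS cells, and Hba-a1 and Hba-a2 had 0 against 12 and 0 against 11. Of the 7 other leukocyte markers, Cd74 and Lyz2 were measured, with 25 against 62 and 47 against 116 UMIs, and 30 of the 62 and 57 of the 116 were in 1 PBS cell each. The 5 endothelial markers summed to 186 against 103 CPM; Ramp2 was the 1 measured, with 41 against 18 UMIs, a ratio of 2.10 (1.18 to 3.89) and 1.58 without the leading cells. The 5 smooth muscle markers summed to 196 against 161 CPM, with Acta2 at 31 against 18 UMIs, the 8 pericyte markers to 136 against 154 CPM, with 2 measured and neither past 2-fold, and the 5 mesothelial markers to 78.8 against 44.4 CPM, with none measured. Cnn1, of smooth muscle, Epcam, of epithelial cells, Cspg4, Higd1b, Notch3 and Trpc6, of pericytes, and Msln and Lrrn4, of mesothelium, had no UMI in either library, whereas Scgb1a1, of airway secretory cells, had 255 against 194. The part of such transcripts in the results was not tested, except that leaving out cells with at least 1% of UMIs in S100a8 and S100a9 kept all 30 named genes past 2-fold. The rule for named genes left out Il1b and Srgn, higher in treated cells, and Lyz2, lower, because their levels were below 25% of those in all other cells.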

How the data were processed

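The deposited files were raw UMI counts per gene and cell, made with Cell Ranger 9.0.1 per the file headers and aligned to mm10 per the series description; the annotation release is not given in the sources used here. Both matrices were read as deposited. Barcodes under 500 UMIs or 200 genes, or over 20% mitochondrial RNA, were dropped. The cells, gene lists and comparisons were chosen with earlier results of these data known. Counts were summed per library, intervals were exact Poisson, Clopper-Pearson or conditional binomial at 95%, and 0.5 counts were added for log2 ratios. Genes needed 30 UMIs, and at least 2-fold was the call. Named genes were the 15 highest and 15 lowest ratios with 100 UMIs, leaving out mitochondrial, ribosomal, haemoglobin, antigen-receptor and predicted genes and those under 25% of the level in all other cells. Of each list, up to 4 members with the most UMIs and the highest and lowest ratios were named; as were the 12 highest over alveolar fibroblasts; further members were chosen after their values were seen. Of 55357 gene identifiers, 52081 matched GENCODE vM21, which gave positions. Doublets were not removed, except as an alternative with Scrublet in Scanpy 1.11.5, which called 6 of the 65 and 7 of the 83 cells. For log2 ratios, counts of genes and the share ratio, all kept cells were thinned to 1000 UMIs, which left out 1038 and 1514 shallower cells. The definition was then applied again to the thinned counts, which gave 50 treated and 77 PBS cells. The cells thus differed as well as the depth. Shares of adventitial cells with a UMI after thinning used 61 treated and 77 PBS cells of the original choice. The computation was tested on simulated independent Poisson counts without cells, which is the model the intervals assume. This test cannot show how the intervals behave where UMIs cluster in few cells. Sums and intervals used scipy 1.17.1 with numpy 2.4.6 under Python 3.11.15, tables pandas 2.3.3, figures matplotlib 3.10.9, and TMM scaling edgeR 4.0.16 in R 4.3.3. Some genes that these rules name are left out here.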

Additional observations from a re-analysis of the deposited data

Results flagged for a closer look

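Of the 145 genes at least 2-fold lower in adventitial fibroblasts that were also measured in alveolar fibroblasts, 9 were at least 2-fold higher there. That is a smaller share than the 8.38% of all genes that were at least 2-fold higher in alveolar cells. Of the 177 genes at least 2-fold higher in adventitial cells and measured in alveolar ones, 0 were at least 2-fold lower there, against 2.92% of all genes. The 9 genes were chosen for their opposite ratios, so their values are a description. The ratio of the 2 ratios carries a counting interval only, and the difference was not tested across animals. Aspn had 44 against 104 UMIs in adventitial and 25 against 6 in alveolar cells, a ratio of ratios of 0.129 (0.0493 to 0.335). Hhip had 44 against 143 and 23 against 8, a ratio of ratios of 0.136 (0.0567 to 0.324), and its adventitial counts lay mostly in cells without Pi16. Efna5, a membrane-bound ephrin ligand, had 19 against 42 and 42 against 4, a ratio of ratios of 0.0546 (0.0171 to 0.174). Sema3d, a secreted guidance cue, had 53 against 101 and 35 against 10, a ratio of ratios of 0.190 (0.0873 to 0.413). Galnt15, a glycosyltransferase, had 29 against 64 and 34 against 12, a ratio of ratios of 0.203 (0.0919 to 0.447). Man1a, a mannosidase of the Golgi, had 26 against 50 and 33 against 12, a ratio of ratios of 0.240 (0.106 to 0.540). Foxo1, a transcription factor restrained by insulin signalling, had 14 against 28 and 22 against 8, and Osbpl8, a lipid-transfer protein, 11 against 21 and 32 against 7, with ratios of ratios of 0.230 and 0.145; without the leading cells their adventitial ratios were 0.636 and 0.614. Lyz2, of macrophages and other myeloid cells, had 47 against 116 and 192 against 47, a ratio of ratios of 0.126, and 57 of the 116 PBS UMIs were in 1 cell.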

How the results depend on the processing

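With 1 library per group, nothing here measures variation among mice. The share ratio of 0.831 stayed within its counting interval under all 11 alternatives run, from 0.668 after thinning to 1.16 among cells with low neutrophil UMIs. The 208 higher and 200 lower genes became 40 and 36 of 577 measured genes when cells were thinned to 1000 UMIs and chosen anew. They became 625 and 906 with a minimum of 10 UMIs, 63 and 26 with a minimum of 100, and 435 and 586 at 1.5-fold. TMM scaling gave 129 lower genes. In alternatives chosen after seeing the data, leaving out the 5 deepest cells of each library gave 131 lower genes, and Pi16-positive cells alone gave 130 higher genes. Of 450 values of the 30 named genes, 395 stayed inside the counting interval, 52 lay outside it and 3 changed sign: thinning gave log2 ratios of -0.23 for Clu and 0.28 for Antxr1, and Pi16-positive cells gave 1.28 for Hhip. All 15 higher named genes stayed past 2-fold in 13 of 15 alternatives, with 14 after thinning and 14 without the deepest cells; the lower ones kept 7 to 15. The chemokine and NF-kB medians kept their sign in every setting run, whereas that of the fibroblast transcription factors was 0.18 after thinning. The acute-phase median kept its sign in the other settings, but too few of its genes were measured after thinning to give a value. No paired analysis was possible because each group is 1 library.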
